A study of Homo sapiens with 15 samples.

Results

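RNA sensors and the interferon signalling factors that act downstream of them were followed across 5 groups of ovarian cancer cells. The members were every probe set whose single gene symbol was IFIH1, DHX58, TLR3, MAVS, IRF1, IRF3, IRF7, IRF9 or STAT2. Of these 9 genes, 8 of the 19775 genes on the array had a probe set, with 16 of its 54675 probe sets between them, and STAT2 was not analysed here. Double-stranded RNA in the cytosol is bound by helicases such as IFIH1, also called MDA5, which pass the signal to MAVS on mitochondria. MAVS in turn leads to activation of IRF3 and IRF7, the transcription factors that switch on interferon genes. Secreted interferon acts back on cells through a complex of STAT proteins with IRF9, and that complex raises many of the same sensors and factors.

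The groups were CP70 given both decitabine and PXD101, CP70 given decitabine, CP70 given PXD101, untreated CP70 and untreated A2780, each with 3 biological replicates. A2780 is a human ovarian cancer line sensitive to cisplatin, and CP70 is a resistant line derived from it, so all drug comparisons rest on 1 line. Decitabine, a nucleoside analog, is built into DNA and depletes its methyltransferases. It was used at 0.1 µM for 48 h, in the single-drug arm with a fresh dose after 24 h. PXD101 (belinostat) inhibits histone deacetylases. It was used at 0.1 µM for 48 h alone, but for 24 h in the combined arm, so its length of exposure differed between these arms. Treated cells were collected 96 h after drug removal. Nothing in the labels says whether the replicates were separate cultures beyond the word biological, so p-values measure the spread between these samples.

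The values are log2 levels of Affymetrix probe sets as deposited, with array medians of 5.00 to 5.06, and the number of arrays limits their precision. Levels are compared between groups for 1 probe set at a time, never between genes. A gene was called at a limma adjusted p under 0.05 over 19775 genes, each taken by its brightest probe set. The untreated CP70 arrays were split. Replicate 2 had correlations of 0.983 and 0.986 to its fellow replicates 1 and 3 but of 0.995 to 0.997 to all 3 arrays given PXD101. It was also closer than replicates 1 and 3 to every A2780 and decitabine-treated array. With A2780 replicate 2, for example, the correlations were 0.958 against 0.940 and 0.942. Whether replicate 2 carries the wrong label, or replicates 1 and 3 are the unusual ones, was not tested. Differences from untreated CP70 include all 3 unless stated. Where a named gene's call for decitabine was lost against replicate 2 alone, this is said beside it. With 1 untreated array the SE can grow enough to lose a call, so the size of the difference is given too. Of 10 markers of ovarian and epithelial cancer lines, PAX8 lay at 7.08 to 7.30 log2 in the group means and VIM at 14.21 to 14.33. WT1, MUC16 and CDH1 lay under 4.34 log2, the lower quartile of all gene values. In such bulk samples, fewer cells with a transcript and less RNA per cell cannot be told apart.

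The sequences around the gene starts are shown so that members that rose with decitabine can be read beside those that did not, and because interferon-responsive promoters carry recognisable motifs. RefSeq windows of 300 bases (250 before to 50 after the start, GRCh38.p14) were matched for 5 of the 8 measured genes. None was available for DHX58, IRF3 and IRF7, so among members called higher with decitabine only IFIH1 and IRF9 are shown. Capitals mark matches, on either strand, to the core of the interferon-stimulated response element (GAAA, any 2 bases, then GAAA), or to the gamma-activated site TTCNNNGAA, which reads the same on both strands.
IFIH1, chr2:162318635-162318934, minus strand: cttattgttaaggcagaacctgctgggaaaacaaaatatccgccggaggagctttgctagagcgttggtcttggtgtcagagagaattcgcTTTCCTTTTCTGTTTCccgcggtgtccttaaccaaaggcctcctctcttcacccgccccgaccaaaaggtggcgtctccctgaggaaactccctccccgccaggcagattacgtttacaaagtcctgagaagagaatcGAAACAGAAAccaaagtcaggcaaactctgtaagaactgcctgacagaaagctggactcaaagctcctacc
TLR3, chr4:186068906-186069205, plus strand: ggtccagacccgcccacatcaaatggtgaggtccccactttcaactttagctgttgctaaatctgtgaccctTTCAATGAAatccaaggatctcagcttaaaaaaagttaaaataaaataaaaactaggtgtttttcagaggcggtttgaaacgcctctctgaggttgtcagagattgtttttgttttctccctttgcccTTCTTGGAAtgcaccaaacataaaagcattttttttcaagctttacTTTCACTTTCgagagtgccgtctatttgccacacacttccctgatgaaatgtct
MAVS, chr20:3846584-3846883, plus strand: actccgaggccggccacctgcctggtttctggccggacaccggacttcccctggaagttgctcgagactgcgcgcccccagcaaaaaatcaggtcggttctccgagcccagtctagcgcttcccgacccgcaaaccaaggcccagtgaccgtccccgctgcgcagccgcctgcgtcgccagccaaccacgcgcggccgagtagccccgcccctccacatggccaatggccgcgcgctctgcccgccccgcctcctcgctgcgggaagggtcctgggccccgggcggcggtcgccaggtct
IRF1, chr5:132490724-132491023, minus strand: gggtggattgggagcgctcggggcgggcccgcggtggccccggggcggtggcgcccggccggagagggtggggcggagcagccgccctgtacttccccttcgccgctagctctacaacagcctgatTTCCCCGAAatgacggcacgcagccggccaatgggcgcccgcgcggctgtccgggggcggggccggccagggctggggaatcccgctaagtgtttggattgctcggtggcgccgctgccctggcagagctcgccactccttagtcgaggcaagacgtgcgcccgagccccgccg
IRF9, chr14:24161015-24161314, plus strand: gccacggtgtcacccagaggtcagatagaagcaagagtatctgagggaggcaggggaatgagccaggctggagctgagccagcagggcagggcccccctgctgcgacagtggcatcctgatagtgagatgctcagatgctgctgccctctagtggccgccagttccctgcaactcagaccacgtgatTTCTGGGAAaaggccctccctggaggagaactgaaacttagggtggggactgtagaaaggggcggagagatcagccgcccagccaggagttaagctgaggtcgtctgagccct
The response-element core occurred in 3.57% of all 35116 such windows and TTCNNNGAA in 7.66%. IFIH1 held 3 matches to the core, beginning 159, 153 and 21 bases before the start, and the first 2 of them overlap. TLR3 held 1 match to the core 4 bases before its start, with TTCNNNGAA at 178 and 50 bases. IRF1 and IRF9 each held 1 TTCNNNGAA, 124 and 63 bases before the start. The MAVS window held neither. CpG, the dinucleotide that DNA methyltransferases modify, occurred 12 times in the IFIH1 window, 5 times in TLR3, 34 in MAVS, 36 in IRF1 and 7 in IRF9, against a median of 14 over all windows. A match describes these letters only, and no binding or methylation was measured.

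Comparing CP70 given decitabine with untreated CP70 asks what a DNA methyltransferase inhibitor does to RNA sensing in resistant cells. With decitabine 5 of the 8 measured members rose, namely IFIH1, DHX58, IRF3, IRF7 and IRF9, and 0 fell. Over all 19775 genes, 4.87% were called higher and 3.14% lower. The median difference was 0.84 log2 over the members and 0.02 log2 over all genes. Counted without adjustment at p under 0.05, 6 members were higher and 0 lower, where 13.2% of all genes were higher and 9.62% lower. Rank product, which the study's design names as its test, called 3 higher and 0 lower, where 379 of all genes were called in either direction. The 3' actin probe set exceeded the 5' one by 0.443, 0.342 and 0.787 log2 with decitabine. In untreated CP70 it did so by 0.859, 0.629 and 0.647 log2, so the groups overlapped. Decitabine replicate 3 had the highest such GAPDH value of all 15 arrays, at 0.187 log2. The part of this sign of RNA quality in the result was not tested.

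**Figure D1:**
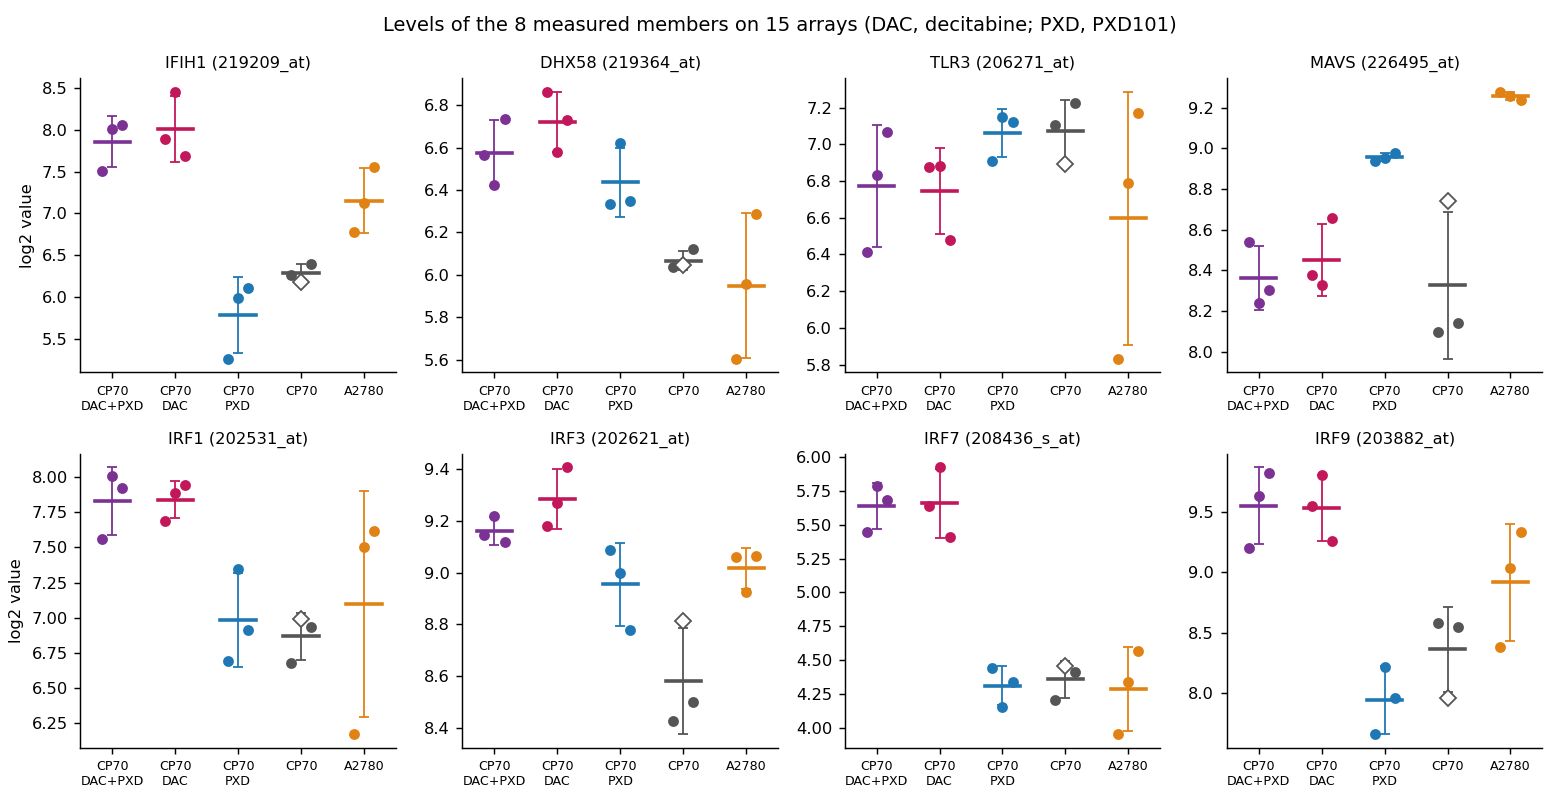
Log2 level of each measured member on every array, with 1 panel a gene; points are the 3 replicates of a group, thick bars group means, thin bars ± SD, and the open diamond untreated CP70 replicate 2. IFIH1, IRF1, IRF7 and IRF9, and narrowly IRF3, lie higher on all 6 arrays with decitabine than on the 6 other CP70 arrays. DHX58, TLR3 and MAVS do not.

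IFIH1 (probe set 219209_at), the sensor of long double-stranded RNA, had the largest rise among the members. It stood at 7.89, 8.46 and 7.68 log2 with decitabine, against 6.26, 6.18 and 6.40 log2 in untreated CP70. Every decitabine array lay above every untreated array, by more than the spread within either group. The difference was 1.73 ± 0.25 log2 (SE, n = 3 each), or 3.32-fold, with a limma adjusted p of 0.000512. Against CP70 replicate 2 alone it was 1.83, with an adjusted p of 0.0124. Its other probe sets, 1555464_at and 216020_at, are dim and were not called here, at 0.67 and -0.07 log2 (adjusted p = 0.0581 and 0.819 over all probe sets). Averaged over its probe sets, IFIH1 rose by 0.78 log2 (limma adjusted p = 0.00197).

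DHX58 (219364_at), or LGP2, is a helicase of the same family that lacks the signalling domains and modulates the other sensors. Its levels were 6.86, 6.58 and 6.73 log2 with decitabine, against 6.04, 6.04 and 6.12 log2 in untreated CP70. The groups did not overlap, and the rise of 0.65 ± 0.15 log2 had a limma adjusted p of 0.0128. The call was lost without decitabine replicate 1 (adjusted p = 0.0533). It was also lost against CP70 replicate 2 alone, where the difference was no smaller (0.68 log2) but its SE was larger (0.22 against 0.15 log2).

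TLR3 (206271_at) senses double-stranded RNA inside endosomes and signals without MAVS. It lay at 6.88, 6.88 and 6.48 log2 with decitabine, against 7.11, 6.89 and 7.23 log2 in untreated CP70. The decitabine arrays lay below the untreated ones, narrowly, but the difference of -0.33 ± 0.26 log2 did not pass the test (adjusted p = 0.499). Its other probe sets, 239587_at and 242667_at, differed by -0.65 and -0.05 log2 and were not called either, where 3.27% of named probe sets were called higher and 3.06% lower.

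MAVS (226495_at), the adaptor of the helicases, had levels of 8.37, 8.33 and 8.66 log2 with decitabine, against 8.10, 8.74 and 8.14 log2 in untreated CP70. CP70 replicate 2 was the highest of these 6 arrays, and the groups overlapped. The difference was 0.13 ± 0.15 log2 (limma adjusted p = 0.668). It became 0.34 log2 without CP70 replicate 2, with an adjusted p of 0.0405, and -0.29 log2 against that replicate alone (adjusted p = 0.359).

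Among the transcription factors, IRF7 (208436_s_at), the inducible amplifier of interferon production, was at 5.64, 5.92 and 5.41 log2 with decitabine, against 4.21, 4.46 and 4.41 log2 in untreated CP70. Its lowest decitabine array lay far above its highest untreated one. The rise was 1.30 ± 0.16 log2, or 2.46-fold (limma adjusted p = 0.000121), and 1.20 against CP70 replicate 2 alone (adjusted p = 0.0095). Untreated levels were close to the lower quartile of all genes, where the scale flattens and a fold can be understated.

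IRF9 (203882_at), the DNA-binding part of the interferon-activated complex, lay at 9.55, 9.80 and 9.26 log2 with decitabine, against 8.58, 7.96 and 8.54 log2 in untreated CP70. The groups were fully apart. The rise was 1.18 ± 0.25 log2 (limma adjusted p = 0.0083), and 1.58 with CP70 replicate 2 as the sole untreated array (adjusted p = 0.016).

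IRF3 (202621_at), the factor present before any stimulus, had 9.18, 9.27 and 9.41 log2 with decitabine, against 8.43, 8.81 and 8.50 log2 in untreated CP70. It rose by 0.70 ± 0.11 log2 (limma adjusted p = 0.0013) with no overlap. Against CP70 replicate 2 alone, its highest untreated array, the difference was 0.47 log2 and the call was lost (adjusted p = 0.0854).

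IRF1 (202531_at), which drives basal and interferon-gamma-induced antiviral genes, was at 7.69, 7.89 and 7.94 log2 with decitabine, against 6.68, 6.99 and 6.93 log2 in untreated CP70. The arrays did not overlap, yet the difference of 0.97 ± 0.29 log2 narrowly missed the threshold (limma adjusted p = 0.0535). It passed without CP70 replicate 2 (1.04 log2, adjusted p = 0.0297), and the second IRF1 probe set, 238725_at, differed by 0.71 log2 (adjusted p = 0.11).

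The combined arm against PXD101 alone gives the decitabine difference a second time, on 6 arrays that share none with the first comparison, though PXD101 exposure differed. IFIH1, IRF7 and IRF9 rose, and MAVS fell. Of all genes, 5.91% were called higher and 4.03% lower. The median difference was 0.53 log2 over the members and -0.01 log2 over all genes.

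**Figure D2:**
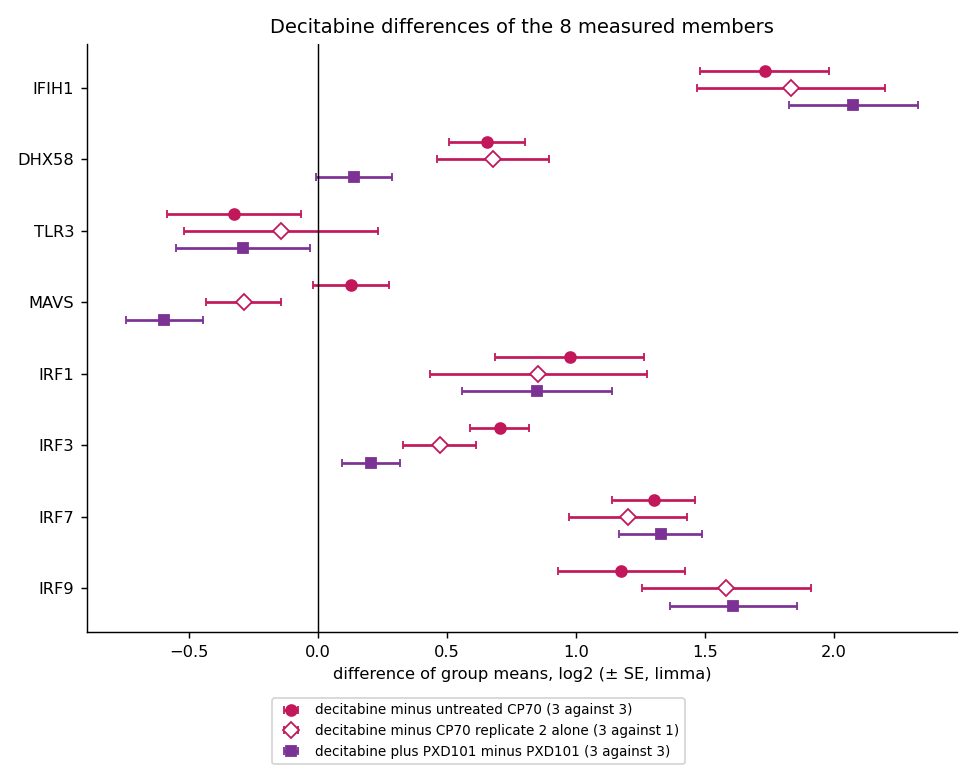
Decitabine differences in log2 with their SE for the 8 measured members, against all 3 untreated CP70 arrays, against CP70 replicate 2 alone, and in the combined arm against PXD101. IFIH1, IRF7 and IRF9 lie above 1 in all 3, whereas MAVS and DHX58 depend on the comparison.

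IFIH1 was at 7.51, 8.01 and 8.06 log2 with both drugs, against 5.26, 5.98 and 6.11 log2 with PXD101. All combined arrays lay well above all PXD101 arrays, with a rise of 2.08 ± 0.25 log2, or 4.21-fold (limma adjusted p = 7.3e-05). The dim probe sets 1555464_at and 216020_at, not called with decitabine alone, were called here, at 0.71 and 0.46 log2 (adjusted p = 0.0381 and 0.0236 over all probe sets, of which 4.57% of the named ones were called higher and 3.65% lower). IRF7 was at 5.45, 5.78 and 5.68 log2 with both drugs, against 4.44, 4.15 and 4.34 log2 with PXD101. It rose by 1.33 ± 0.16 log2 with no overlap (limma adjusted p = 7.69e-05), though its PXD101 mean lay under the lower quartile. IRF9 had 9.20, 9.63 and 9.82 log2 with both drugs, against 7.65, 8.22 and 7.96 log2 with PXD101. It rose by 1.61 ± 0.25 log2, again with no overlap (limma adjusted p = 0.000663). No single array left out ended any of these 3 calls.

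MAVS moved the other way. Its levels were 8.54, 8.24 and 8.31 log2 with both drugs, against 8.94, 8.95 and 8.98 log2 with PXD101. All combined arrays lay below the tightly grouped PXD101 arrays, and MAVS fell by 0.60 ± 0.15 log2, or 1.51-fold (limma adjusted p = 0.0187). The 3 other MAVS probe sets differed by -0.45, -0.64 and -1.26 log2, of which the last 2 were called (adjusted p = 0.00664 and 0.000863). The call on 226495_at was lost without combined replicate 2 or 3 or any 1 PXD101 array, at adjusted p-values of 0.0526 to 0.0983.

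**Figure D3:**
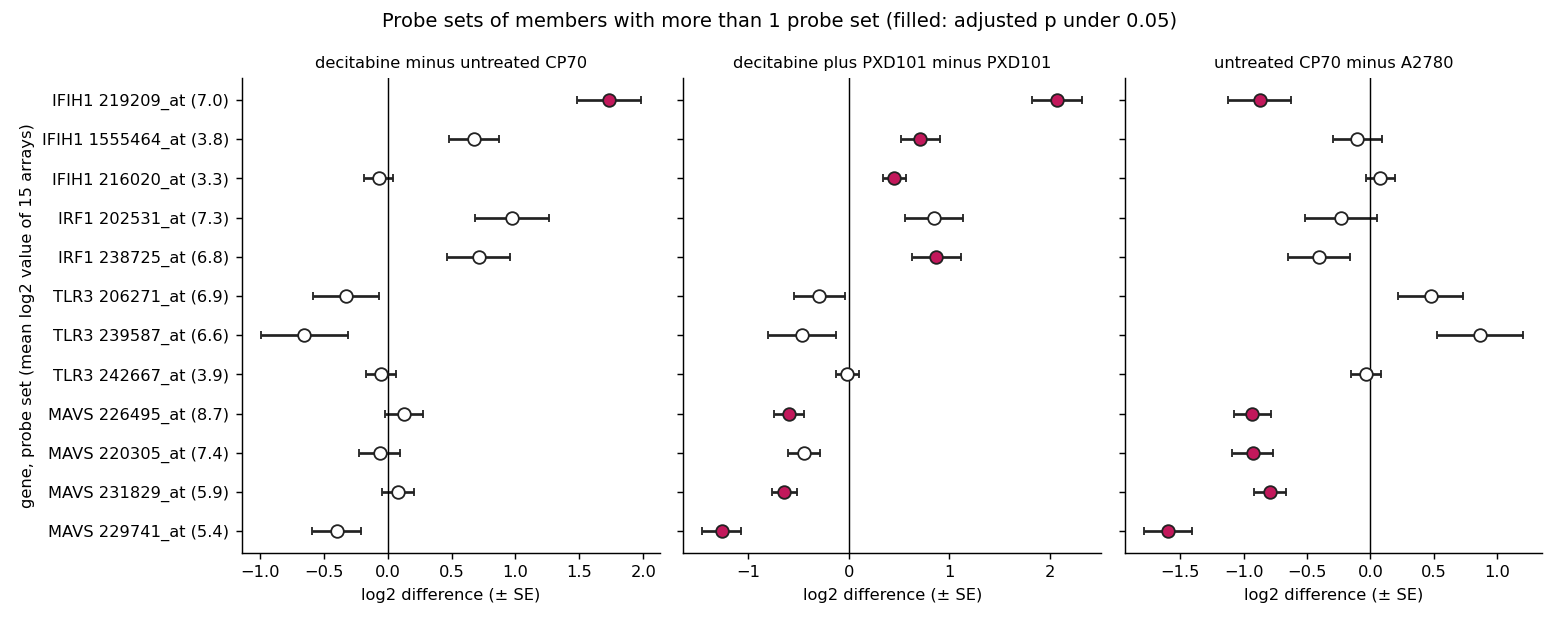
Log2 differences with their SE for every probe set of the members that have more than 1, in both decitabine comparisons and for untreated CP70 minus A2780; filled points were called by limma over all probe sets. The 4 MAVS probe sets all lie below 0 in the combined arm against PXD101, and no TLR3 probe set was called.

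The remaining members were not called in the combined arm against PXD101. IRF1 differed by 0.85 ± 0.29 log2 with no overlap between the groups (limma adjusted p = 0.0826). Its second probe set was called at 0.87 log2 (adjusted p = 0.0411 over all probe sets). DHX58 stood at 6.57, 6.43 and 6.73 log2 with both drugs, against 6.34, 6.62 and 6.35 log2 with PXD101, an overlapping difference of 0.14 ± 0.15 log2 (adjusted p = 0.635). IRF3 differed by 0.20 ± 0.11 log2, narrowly without overlap (limma adjusted p = 0.304), and TLR3 by -0.29 ± 0.26 log2 (adjusted p = 0.563).

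The difference between the 2 decitabine effects was itself tested, and limma called 0 of 8 members, against 0.0152% of genes called higher and 0% lower. Both drug schedules differed between the arms, and their part in this difference was not tested. Before adjustment, 0 members at p under 0.05 had a higher decitabine difference with PXD101 than without it and 3 a lower one, where 8.56% of all genes were higher and 9.53% lower. The 3 were MAVS, whose decitabine difference was below 0 with PXD101 and above 0 without it, at -0.72 log2 (adjusted p = 0.191), IRF3 at -0.50 log2 (adjusted p = 0.191) and DHX58 at -0.52 log2 (adjusted p = 0.231). Without CP70 replicate 2, MAVS (-0.93 log2, adjusted p = 0.000595) and IRF3 (-0.62 log2, adjusted p = 0.0069) were called. With all arrays kept but weighted by their fit, MAVS (-0.88 log2, adjusted p = 0.000258), IRF3 (-0.46 log2, adjusted p = 0.0103) and DHX58 (-0.51 log2, adjusted p = 0.0404) were called. The weights were 0.158 for CP70 replicate 2, 0.84 for replicate 1 and 5.127 for replicate 3. This setting therefore comes close to leaving replicate 2 out and is not a separate check. The reported fit called 3 of all 19775 genes for this difference, but leaving out 1 array gave up to 4059. Array weights also called far more genes, with the count given at the end. Calls in these settings were therefore not particular to the members.

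PXD101 alone against untreated CP70 raised MAVS and IRF3, 2 of the 8 members, where 5.57% of genes were called higher and 5.15% lower. MAVS, at the levels given above, was 0.63 ± 0.15 log2 higher with PXD101 (limma adjusted p = 0.0253). IRF3 was at 9.09, 9.0 and 8.78 log2 with PXD101, against 8.43, 8.81 and 8.50 log2 in untreated CP70, an overlapping rise of 0.37 ± 0.11 log2 (limma adjusted p = 0.0479). Both calls were lost without any 1 of the 6 arrays other than CP70 replicate 2, fits in which 0 of the 19775 genes were called. With CP70 replicate 2 as the sole untreated array the differences were 0.21 and 0.14 log2. The 3' actin probe set exceeded the 5' one by 0.384, 0.509 and 0.480 log2 with PXD101 and by 0.859, 0.629 and 0.647 log2 in untreated CP70, and the part of this sign of RNA quality in the result was not tested. IFIH1 and IRF9 differed by -0.50 and -0.42 log2 with PXD101 and were not called (adjusted p = 0.216 and 0.299).

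Both drugs against untreated CP70 gave 6 of 8 members higher and 0 lower, against 6.17% and 4.22% of genes. This comparison shares its untreated arrays with the others, so it is not a further replicate. IFIH1 rose by 1.58, IRF7 by 1.28, IRF9 by 1.19, IRF1 by 0.97, IRF3 by 0.58 and DHX58 by 0.51 log2, with limma adjusted p-values of 0.000111 to 0.0473. The IRF1 and DHX58 calls were lost without any 1 of the 6 arrays except CP70 replicate 2, at adjusted p-values of 0.0631 to 0.1645 for IRF1 and 0.061 to 0.1384 for DHX58. Against CP70 replicate 2 alone only IFIH1, IRF7 and IRF9 were called. The 3' actin probe set exceeded the 5' one by 0.424, 0.471 and 0.491 log2 with both drugs, below all 3 values of untreated CP70 given above, and its part in the result was not tested. Both drugs against decitabine alone changed 0 of 8 members by limma, at an unadjusted p under 0.05 or by rank product, where 0.0101% of genes were called higher and 0% lower, and 1.94% were higher and 2.76% lower before adjustment. Rank product called 20 of all genes there. The differences of the members ran from -0.15 to 0.02 log2 with SEs of 0.11 to 0.29, which does not show that the arms were alike.

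Untreated CP70 against A2780 shows where the resistant line stood before treatment. IFIH1, MAVS and IRF3 were lower in CP70 and no member was higher, while 15.2% of genes were called lower and 16.1% higher. MAVS had the clearest separation, with 8.10, 8.74 and 8.14 log2 in CP70, against 9.28, 9.26 and 9.24 log2 in A2780. The difference was -0.93 ± 0.15 log2 (limma adjusted p = 0.000171), and all 4 probe sets were called, from -0.79 to -1.60 log2, with 13.8% of named probe sets called lower and 13.5% higher. IFIH1 was at 6.26, 6.18 and 6.40 log2 in CP70, against 6.78, 7.12 and 7.56 log2 in A2780. It was lower by a fitted -0.87 ± 0.25 log2 (limma adjusted p = 0.0143), and the call was lost without A2780 replicate 3 (-0.67 log2, adjusted p = 0.0786). IRF3 differed by -0.44 ± 0.11 log2 (limma adjusted p = 0.00792). With CP70 replicate 2 as the only CP70 array, MAVS alone was called, at a smaller difference of -0.52 log2 (adjusted p = 0.0255). IFIH1 then differed by -0.97 log2 (adjusted p = 0.0914) and IRF3 by -0.20 log2 (adjusted p = 0.417). Rank product called 0 of 8, and its count over all genes is given at the end. A2780 replicate 1 was the lowest A2780 array for IFIH1, DHX58, TLR3, IRF1, IRF7 and IRF9. Without it IRF1 (-0.70 log2, adjusted p = 0.0108) and IRF9 (-0.82 log2, adjusted p = 0.0184) were also called lower. Without A2780 replicate 3, TLR3 was called higher in CP70 (0.76 log2, adjusted p = 0.0341). The actin sign also differed here, at 0.629 to 0.859 log2 in CP70 and 0.337 to 0.377 log2 in A2780, and its part was not tested.

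Set against A2780, decitabine-treated CP70 had 3 members higher and 1 lower, where 17% and 12.9% of genes were called. IRF7 was higher by 1.37 ± 0.16 log2 (limma adjusted p = 7.81e-06), DHX58 by 0.77 ± 0.15 (adjusted p = 0.000826) and IFIH1 by 0.86 ± 0.25 (adjusted p = 0.0161). MAVS was lower by a fitted -0.80 ± 0.15 log2 (limma adjusted p = 0.00058), so that it stood below A2780 with and without decitabine. The IFIH1 call was lost without A2780 replicate 1 (adjusted p = 0.0853) or decitabine replicate 2 (adjusted p = 0.0924). IRF1 was called without A2780 replicate 2 or 3 (adjusted p = 0.0398 and 0.0221), and IRF9 without A2780 replicate 3 (adjusted p = 0.0286).

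The order of the group means differed between members. For IFIH1 the means were 8.01 log2 with decitabine, 7.86 with both drugs, 7.15 in A2780, 6.28 in untreated CP70 and 5.78 with PXD101. The top 2 overlapped, as did both drugs and A2780, and the lower steps were free of overlap. MAVS ran in another order, from A2780 at 9.26 and PXD101 at 8.96 to decitabine at 8.45, both drugs at 8.36 and untreated CP70 at 8.33, the last 3 overlapping. IRF7 had 1 clear step, between 5.64 log2 with both drugs and 4.36 in untreated CP70. TLR3 had no neighbouring groups that were apart.

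**Figure D4:**
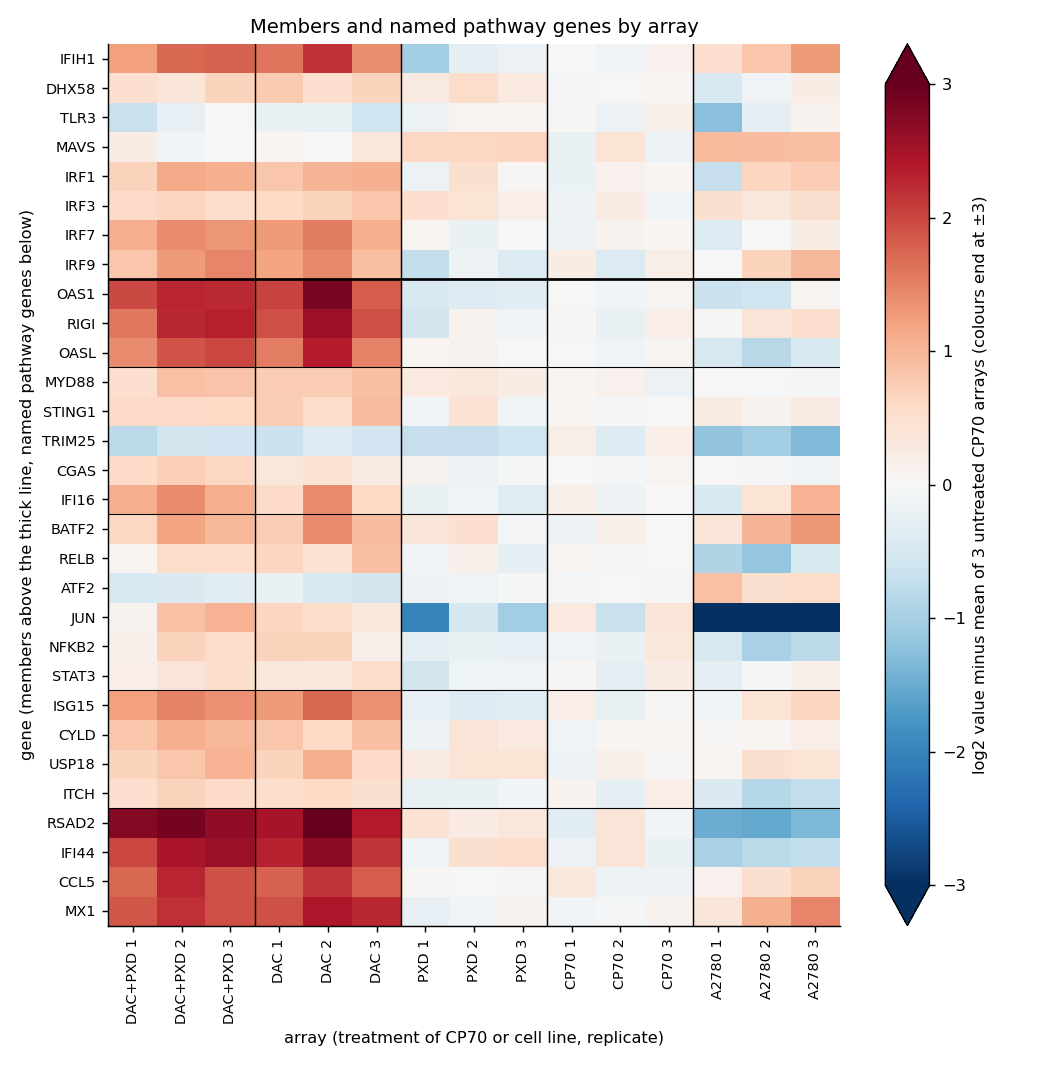
Log2 value of members and listed pathway genes on each array minus the mean of the 3 untreated CP70 arrays. Colours end at ±3, which JUN in A2780 and the effector RSAD2 on decitabine replicate 2 exceed. IFIH1, IRF7 and IRF9 share the colour of OAS1 and RIGI on the 6 arrays with decitabine.

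Genes whose levels ran most like a member's were named by Pearson's r over the 12 CP70 arrays, as a description, since all genes share these arrays and their normalization. For IFIH1 they were HERC5 at 0.988, RIGI at 0.987 and OAS1 at 0.981, an interferon-induced ligase, the RIG-I sensor and an oligoadenylate synthetase. IRF7 ran with FGD2 (0.989), the cancer-testis gene MAGEA11 (0.985) and OAS1 (0.984). IRF9 ran with SERPINB1 (0.986), SP100 (0.985) and CCN2 (0.985). MAVS had other partners, GIT2 (0.984), RUFY1 (0.983) and EIF2AK1 (0.982), as did IRF3, with THOC5 (0.981), ALKBH6 (0.975) and SH3BGRL3 (0.967). DHX58 ran less closely with any gene, the nearest being MED15P9 (0.942), SELENBP1 (0.921) and PPP4R3A (0.915).

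The rest of the pathway was read from lists chosen by function, and listed genes with no probe set in the table used were not analysed here. Genes named from a pathway list were picked among the 3 with the smallest limma p in either decitabine comparison. They are the extremes of their list and not typical of it. The median decitabine difference against untreated CP70 was 0.88 log2 for interferon-stimulated effectors, 0.49 for sensors, 0.44 for negative regulators, 0.41 for other IRF, STAT and NF-kB factors, 0.19 for adaptors and kinases, 0.19 for silencers of repeats, 0.06 for interferons and receptors and 0.01 for retrovirus-derived genes, beside 0.02 over all genes. For every list below, the shares over all genes in the fit on all arrays are 4.87% higher and 3.14% lower with decitabine. In the combined arm against PXD101 they are 5.91% higher and 4.03% lower. Counts without CP70 replicate 2 come from a fit that called 4673 of 19775 genes in either direction, where the fit on all arrays called 1583. Counts against that replicate alone come from yet another fit. Neither kind is to be read against these shares. Among 12 other RNA sensors and effectors of sensing, 5 were called higher with decitabine and 0 lower, and 4 and 0 in the combined arm against PXD101. RIGI, the sensor of RNA ends, was at 8.66, 9.29 and 8.62 log2 with decitabine, against 6.75, 6.48 and 6.91 log2 in untreated CP70. It rose by 2.14 ± 0.23 log2 (limma adjusted p = 2.83e-05), with no overlap, and by 2.26 ± 0.23 in the combined arm against PXD101 (adjusted p = 1.44e-05). OASL, which binds RIG-I, rose by 1.79 and 1.71 log2 in these comparisons (adjusted p = 4.22e-05 and 5.26e-05). Of the 12, 3 were called against CP70 replicate 2 alone.

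Of 14 adaptors and kinases, 3 were higher and 1 lower with decitabine, and 4 and 0 in the combined arm against PXD101. MYD88, the adaptor of most Toll-like receptors, rose by 0.80 ± 0.11 and 0.47 ± 0.11 log2 (adjusted p = 0.00025 and 0.0108). STING1 and CGAS, the adaptor and enzyme of DNA sensing, also rose in both, STING1 by 0.75 and 0.50 (adjusted p = 0.0026 and 0.0258) and CGAS by 0.33 and 0.66 log2 (adjusted p = 0.0371 and 0.000252). CGAS means lay at 3.51 to 4.19 log2, all under the lower quartile. Its call was lost against CP70 replicate 2 alone, though the difference was no smaller there (0.40 log2). Of the 14, 2 were then called higher and 0 lower. TRIM25, a ligase that activates RIG-I, fell by 0.54 ± 0.14 log2 with decitabine (adjusted p = 0.0306), but not against CP70 replicate 2 alone (-0.16 log2, adjusted p = 0.677). Among 15 other IRF, STAT and NF-kB factors, 3 were higher and 1 lower with decitabine, none of them against CP70 replicate 2 alone.

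Of 22 measured interferons, receptors and receptor kinases, 12 lay under the lower quartile, and 1 was called higher and 1 lower with decitabine, shares near those over all genes. IFNGR2, a chain of the interferon-gamma receptor, was at 10.59, 10.63 and 10.55 log2 with decitabine, against 9.72, 10.05 and 9.84 log2 in untreated CP70, a rise of 0.72 ± 0.10 log2 (limma adjusted p = 0.000375). IFNLR1, a chain of the interferon-lambda receptor, was at 5.68, 5.58 and 5.76 log2 with decitabine, against 6.85, 6.30 and 6.71 log2 in untreated CP70, and fell by 0.95 ± 0.19 log2 (limma adjusted p = 0.00543). Against CP70 replicate 2 alone the IFNLR1 difference was -0.63 log2 (adjusted p = 0.198).

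Of 16 negative regulators, 6 were higher and 1 lower with decitabine, and 4 and 0 in the combined arm against PXD101. ISG15, a ubiquitin-like modifier, was at 11.92, 12.37 and 12.01 log2 with decitabine, against 10.84, 10.40 and 10.67 log2 in untreated CP70, a rise of 1.46 ± 0.17 log2 (limma adjusted p = 6.12e-05). CYLD, a deubiquitinase, rose by 0.78 and 0.80 log2 in both comparisons (adjusted p = 0.0024 and 0.00144), though its call against CP70 replicate 2 alone was lost (0.715 log2). Of the 16, 2 were called higher and 0 lower against that array alone, and 9 and 2 without it. Interferon-stimulated effectors had the highest share of these lists, with 22 of 35 called higher with decitabine and 20 of 35 in the combined arm against PXD101, none lower in either. Of the 35, 13 were called higher against CP70 replicate 2 alone.

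**Figure D5:**
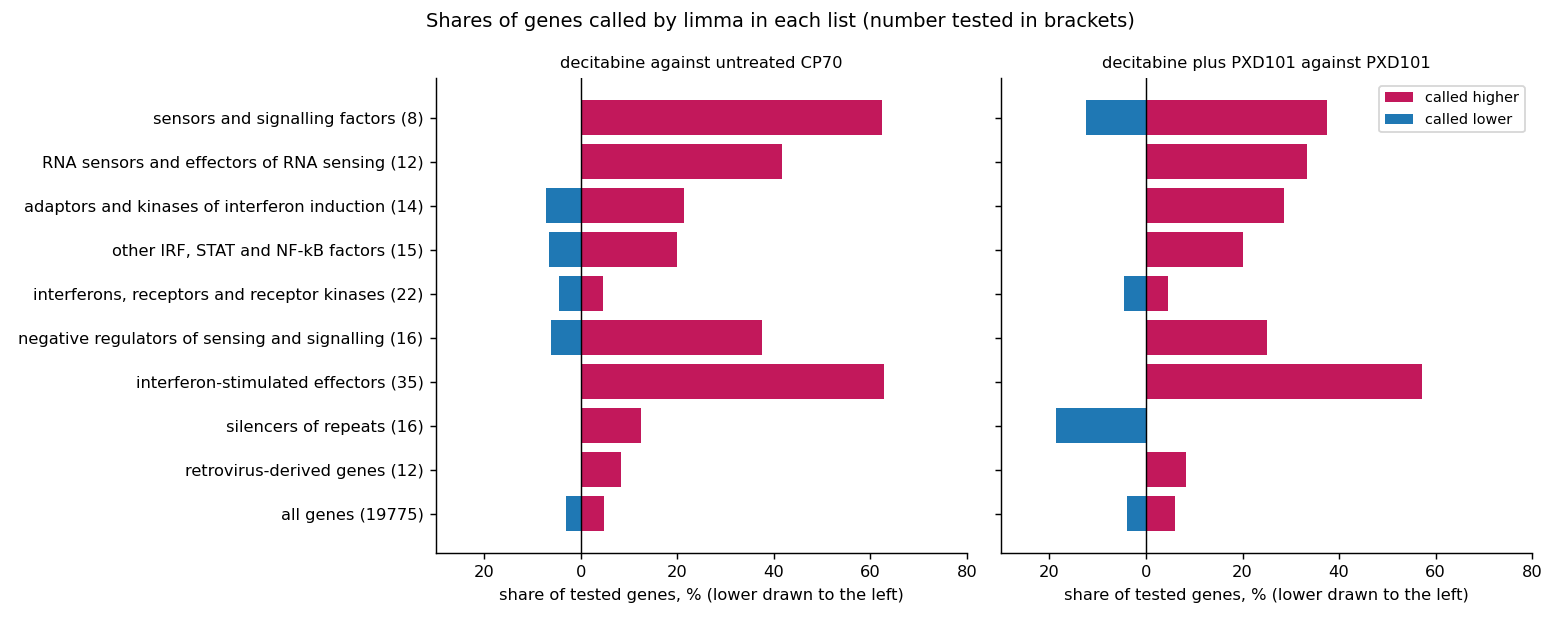
Percent of the members and of each pathway list called higher (right) or lower (left) by limma in the decitabine comparisons, with all 19775 genes for scale. The interferon-stimulated effectors stand furthest to the right, but with decitabine against untreated CP70 the members are about level with them (22 of 35 and 5 of 8).

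Silencers of repeats, which hold retroviral sequences in check, gave 2 of 16 higher with decitabine, and 0 higher and 3 lower in the combined arm against PXD101. The 2 were DNMT3A, a DNA methyltransferase, and UHRF1, which recruits DNMT1 to DNA, and both calls were lost against CP70 replicate 2 alone, at 0.15 log2 for DNMT3A and -0.05 log2 for UHRF1 (adjusted p = 0.765 and 0.91), while 7 of 16 were called higher without that array. HELLS, a remodeller needed for DNA methylation, was lower by 0.83 ± 0.16 log2 in the combined arm than with PXD101 (adjusted p = 0.00345). SETDB1, a histone methyltransferase, was lower by 0.56 ± 0.11 (adjusted p = 0.00377). With decitabine alone against untreated CP70 they differed by -0.15 and -0.16 log2 and were not called (limma adjusted p = 0.624 and 0.419). HELLS was 0.76 log2 higher with PXD101 alone than in untreated CP70 (limma adjusted p = 0.0218), and 0.45 against CP70 replicate 2 alone. Of 12 genes listed as retrovirus-derived, 1 was called in each comparison, ARC, which rose by 0.89 and 0.69 log2 (limma adjusted p = 0.000839 and 0.00408). The list also holds genes derived from related retrotransposons, ARC among them, so its rise is no measure of endogenous retrovirus expression.

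Markers of leukocytes and dendritic cells were measured for 12 genes, of which 5 lay under the lower quartile. Their summed log2 levels were 55.68 to 56.27 with both drugs, 55.85 to 56.25 with decitabine, 53.67 to 53.85 with PXD101, 54.25 to 55.07 in untreated CP70 and 53.70 to 54.58 in A2780. TYROBP averaged 6.92 log2 with decitabine and 5.62 in untreated CP70, and 1 of 12 was called higher there and 2 of 12 in the combined arm against PXD101. PTPRC, the pan-leukocyte marker, stayed at 3.76 to 3.95 log2 in the group means, below the lower quartile. Among 10 epithelial markers 4 were higher and 1 lower with decitabine, and of 9 fibroblast and endothelial markers 1 was higher. Against CP70 replicate 2 alone, 0 leukocyte, 3 epithelial and 0 fibroblast and endothelial markers were called higher and 0 of any lower. The part of these markers in the results was not tested.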

How the data were processed

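RNA was amplified with WT-Ovation Pico and hybridised to Affymetrix arrays, per the labels' protocols. The authors deposited 1 table of log2 values for 54675 probe sets on 15 arrays. R 2.10.1 and affy appear in the submitters' processing notes. How background and arrays were adjusted is not given in the sources used. Values of 2.4 to 14.5 showed a log2 scale. Of the probe sets, 41097 had 1 symbol, 1801 several and 11777 none in the platform annotation. Control probe sets, 62 in all, were left out.

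The brightest probe set on average stood for each gene. limma 3.58.1 (R 4.3.3) was fitted to group means over 15 arrays, with Benjamini-Hochberg adjustment over 19775 genes, and again over every probe set. Named were all members, the 3 genes most correlated with a called member, and up to 3 genes a pathway list and decitabine comparison. The last were those with the smallest limma p in that comparison. Rank product used 100 permutations (Python 3.11.15, numpy 2.4.6). Replicate numbers came from the titles and did not pair the arrays. Promoter windows came from RefSeq, GRCh38.p14. Members, lists and tests were chosen with earlier results of these data known. The fits were tested on simulated data. Alternatives are given at the end.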

Additional observations from a re-analysis of the deposited data

How the results depend on the processing

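The rises of IFIH1, IRF7 and IRF9 in both decitabine comparisons were called under every alternative run for them, including rank product and CP70 replicate 2 as the only untreated array, except that IRF7 was not tested among genes above the median level. For IFIH1, averaging its probe sets, 2 of them dim, gave smaller differences of 0.778 and 1.081 log2 in place of 1.73 and 2.08. Limits are the 3 arrays a group, the unstated normalization and dim probe sets, where folds can be understated. A further limit is the split of untreated CP70 replicate 2 from replicates 1 and 3. The cause was not tested for any value below, other than fewer arrays or genes.

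The counts of genes called were 1583 for decitabine against untreated CP70, 1965 for both drugs against PXD101, 2119 for PXD101 and 2055 for both drugs against untreated CP70, 2 for both drugs against decitabine, 6174 for untreated and 5910 for decitabine-treated CP70 against A2780, and 3 for the difference of decitabine effects. In that order, array weights gave 6668, 4840, 8634, 8125, 5 and 10162, with 5329 for the difference of effects. Rank product gave 379, 828, 358, 446, 20, 1039 and 1156. With only the arrays compared the first 5 counts were 507, 3174, 0, 834 and 0. With CP70 replicate 2 as the only untreated array they were 741 for decitabine, 0 for PXD101, 865 for both drugs, 3369 against A2780 and 0 for the difference of effects. Genes above the median level gave 0 for both drugs against decitabine and 0 for the difference of effects, where the mean of probe sets gave 1. Leaving out 1 array gave 849 to 4673, 938 to 1666, 0 to 5736, 1038 to 4917, 1 to 2, 4701 to 7545, 5023 to 5729 and 0 to 4059.

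Members called higher with decitabine against untreated CP70 numbered 3 by rank product and 3 against CP70 replicate 2 alone, and 4 to 7 without 1 array. For both drugs against PXD101 array weights gave 5 higher, rank product 0 lower, and 1 array left out 3 to 3 higher and 0 to 1 lower. For PXD101, 1 was higher with every probe set tested, 0 with only the arrays compared, 0 by rank product and 0 against CP70 replicate 2 alone, 0 to 2 without 1 array, and array weights gave 1 lower. For both drugs against untreated CP70, rank product and CP70 replicate 2 alone gave 3 each, and 1 array left out 4 to 6. Untreated CP70 against A2780 gave 1 higher by array weights, 1 lower with CP70 replicate 2 alone, 0 lower by rank product, and 0 to 1 higher and 2 to 5 lower without 1 array. Decitabine-treated CP70 against A2780 gave 5 higher by array weights, 0 higher and 0 lower by rank product, and 2 to 5 higher and 1 to 1 lower without 1 array. The difference of effects gave 3 lower by array weights and 0 to 2 without 1 array.

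The replicate block gave 1198 genes and 1 member for PXD101 against untreated CP70. It also brought IRF1 past the threshold for decitabine against untreated CP70 (adjusted p = 0.014), for both drugs against PXD101 (0.0248) and for decitabine-treated CP70 against A2780 (0.0167), and took DHX58 below it for both drugs against untreated CP70 (0.0522). For no 2 groups were the correlations of deviations above 0.1 in all 3 same-numbered pairs.

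Signs turned only where the difference was called neither in the reported fit nor in the one with the other sign. With the mean of probe sets MAVS was -0.063 for decitabine and -0.157 for both drugs against untreated CP70, IFIH1 0.091 and IRF1 0.049 for both drugs against decitabine, and IRF1 0.019 for the difference of effects. With CP70 replicate 2 alone MAVS was -0.289 and -0.381 for decitabine and both drugs, TLR3 0.171 and IRF1 -0.007 for PXD101, and TLR3 -0.146 for the difference of effects. For both drugs against decitabine, array weights gave -0.038 for TLR3, 0.084 for IRF1 and -0.041 for IRF9, and repeated quantile normalization -0.002 for TLR3. Leaving out 1 array moved the following differences across 0. For PXD101 against untreated CP70 TLR3 ran from -0.105 to 0.063, IRF1 from -0.067 to 0.262 and IRF7 from -0.123 to 0.032, and for both drugs MAVS ran from -0.08 to 0.243. For both drugs against decitabine IFIH1 ran from -0.316 to 0.071, TLR3 from -0.124 to 0.204, MAVS from -0.181 to 0.009, IRF1 from -0.098 to 0.127, IRF7 from -0.143 to 0.112 and IRF9 from -0.124 to 0.19. For untreated CP70 against A2780 DHX58 ran from -0.055 to 0.286, IRF1 from -0.697 to 0.03 and IRF7 from -0.095 to 0.214, and for decitabine-treated CP70 TLR3 ran from -0.233 to 0.436. For the difference of effects TLR3 ran from -0.111 to 0.217, IRF1 from -0.272 to 0.058 and IRF7 from -0.096 to 0.159.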

Other observations

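One further probe set, 220788_s_at, is annotated to both RNF31 and IRF9 and was left out of the members. RNF31 is a ubiquitin ligase of the linear chain complex. The probe set lay at 6.83, 6.71 and 7.28 log2 with decitabine, against 6.21, 7.01 and 6.23 log2 in untreated CP70, and at 6.85, 6.95 and 6.78 log2 with both drugs, against 6.89, 6.78 and 6.64 log2 with PXD101. These groups overlapped, unlike those of the IRF9 probe set 203882_at.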
